A study of Homo sapiens with 5 samples.

Results

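The anaphase-promoting complex (APC/C) is the ubiquitin ligase that marks securin and B-type cyclins for destruction and so opens the way to chromosome separation and mitotic exit. Its scaffold subunits hold a catalytic cullin and RING pair next to an arc of tetratricopeptide repeat (TPR) proteins, which bind the coactivators CDC20 and FZR1. An intron that stays in the mRNA of a subunit adds sequence that the protein's reading frame does not normally contain. The introns of 10 subunit genes were followed here: ANAPC1, ANAPC2, ANAPC4, ANAPC5, ANAPC7, ANAPC10, ANAPC11, CDC16, CDC23 and CDC27. They were taken by gene name from 3 tables of intron retention, which gave 59 introns of these genes out of 34560 listed in all.

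The 5 libraries, 1 in each group, were made from polyadenylated RNA of DLD-1, a human colorectal adenocarcinoma line grown in DMEM. All lines carry LacZeo in their names. The control RNAi library came from DLD-1 LacZeo cells whose labelled treatment is none. The WBP11 RNAi and SNW1 RNAi libraries came from the same line after 72 h with 100 nM siRNA against WBP11, a spliceosome-associated protein, or SNW1, a spliceosome component (SKIP) needed at the catalytic stage. The control auxin library came from DLD-1 LacZeo osTIR1 cells, which carry the plant auxin receptor, after 48 h in 500 µM auxin. The WBP11 auxin library is labelled with the same line and treatment, and the series describes cells whose endogenous WBP11 was knocked out and replaced by a transgene tagged with an auxin-inducible degron. Both auxin libraries therefore share osTIR1 and auxin, and loss of WBP11 cannot be told apart from any other difference between the degron line and its control line. Whether the control RNAi cells received a non-targeting siRNA is not stated in the labels.

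Each value is an intron retention ratio as deposited, given here in percent. It approximates the depth of reads over the intron, divided by that depth plus the reads spliced at the intron's busier end. The 2 can differ: at ANAPC4 intron 1 in the WBP11 auxin library the ratio was 60.7%, where that division gives 65.3%. The call for a higher or lower intron was a difference from control of at least 10 percentage points, and "rose" and "fell" are used only in that sense. With 1 library in each group there was no replicate check and no test was made. The 95% intervals (Wilson for a ratio, Newcombe for a difference) cover counting error only. The listed introns of a table held 2987572 to 5527186 spliced reads per library. For the subunit introns the depth plus spliced reads lay between 35.0 and 476 in every library, so all passed the minimum of 10. WBP11 had 20 spliced reads after WBP11 RNAi against 312 in control, and SNW1 had 31 after SNW1 RNAi against 401. In the auxin pair WBP11 had 103 against 235 over 1 listed intron, which does not measure the tagged protein. Of 10 epithelial markers 3 or 4 were listed in each table, CDH1, KRT18 and KRT19 among them, with 17824 to 283367 spliced reads per library. The control RNAi library had 47468 of these reads in the WBP11 RNAi comparison and 283367 in the SNW1 RNAi comparison, where KRT8 was also listed. Of 10 fibroblast and leukocyte markers only CD68 was listed, with 2 to 39 reads, and none was listed in the auxin table. Because listing depended on retention, an unlisted marker is not shown to be unexpressed. Both RNAi comparisons used 1 control library: its values were equal at all 13412 introns listed in both tables.

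Listing itself depended on retention. Every listed intron reached 1% in at least 1 library of its table and was free of an IRFinder warning in at least 1. The counts below are therefore over listed introns and not over all introns of a gene. Introns were listed for 8 of the 10 genes. ANAPC10, a substrate-binding subunit, has 4 introns in GENCODE 29 and ANAPC11, the RING subunit, has 3, and none of these was listed. Of the scaffold genes, ANAPC1 had 5 of 47 introns listed, ANAPC4 had 18 of 28 and ANAPC5 had 4 of 16. ANAPC2, the cullin, had 10 of 12. Of the TPR genes, ANAPC7 had 3 of 10, CDC16 had 9, of which 1 belongs to a second transcript and 8 to its main transcript with 17, CDC23 had 8 of 15 and CDC27 had 2 of 18, with none in the auxin table. The 59 introns comprised 20 listed in 3 tables, 16 in 2 and 23 in 1. Of these, 57 lay within the coding region, ANAPC4 intron 1 lay in the 5′ UTR, and CDC16 intron 18 lay in the 3′ UTR. In 4 cases, ANAPC2 intron 11, ANAPC4 intron 1, ANAPC5 intron 8 and CDC16 intron 18, the tables mark an overlap with an annotated exon, whose reads count as retention. Introns of at most 100 bp made up 13 of the 59, which is 22%, against 13.3% of all listed introns. The median length was 864 bp against 568 bp over all listed introns. ANAPC1, CDC27 and ANAPC10 have named pseudogenes (1, 3 and 1). Whether reads shared with such copies entered the values of ANAPC1 and CDC27 was not tested, so those values stay uncertain.

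Sequences are shown for coding introns that rose and that GENCODE 29 transcripts (GRCh38) contain whole. They are written 5′ to 3′ on the gene's strand, and the capitals mark the earliest stop codon met when the upstream reading frame is continued into the intron. ANAPC5 intron 14 (chr12:121318425-121318500, minus strand, 76 bp, intron 14 of 16) and ANAPC4 intron 23 (chr4:25414386-25414465, plus strand, 80 bp, intron 23 of 28) both reach TAA at intron base 2, after 1 codon that spans the exon boundary. CDC23 intron 14 (chr5:138189753-138189827, minus strand, 75 bp, intron 14 of 15) has a length that is a multiple of 3 and reaches TGA at base 16, after 5 codons. ANAPC2 intron 11 (chr9:137175473-137175707, minus strand, 235 bp, intron 11 of 12) reaches TAG at base 18.

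ANAPC5 intron 14: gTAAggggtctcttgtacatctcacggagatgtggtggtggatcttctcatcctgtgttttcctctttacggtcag

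ANAPC4 intron 23: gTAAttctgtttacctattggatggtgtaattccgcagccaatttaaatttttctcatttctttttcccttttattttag

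CDC23 intron 14: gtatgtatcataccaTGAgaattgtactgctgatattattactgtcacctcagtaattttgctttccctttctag

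ANAPC2 intron 11: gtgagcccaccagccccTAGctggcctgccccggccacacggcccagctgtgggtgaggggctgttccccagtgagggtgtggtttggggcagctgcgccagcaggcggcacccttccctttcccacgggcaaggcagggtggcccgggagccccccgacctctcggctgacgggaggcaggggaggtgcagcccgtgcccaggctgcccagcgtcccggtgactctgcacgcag

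GENCODE transcripts held 13 of the 59 introns, 11 of them coding, and all of those 11 carried an in-frame stop. In 6 of the 11 it came within the first 3 codons read. Over the 57 coding introns, 18 had a length that is a multiple of 3. The short introns shown differed in base composition: GC content was 48.7% in ANAPC5 intron 14, 34.7% in CDC23 intron 14 and 30% in ANAPC4 intron 23, against a median of 63.4% over all 1259 listed introns of at most 100 bp that GENCODE transcripts hold. ANAPC2 intron 11 had 73.2%, against a median of 57.3% over 4788 held introns of any length. The donor letters GTAAG, searched only at the intron's own start, open ANAPC5 intron 14 and 15.4% of the held short introns. They do not open the other introns shown. Pyrimidines filled 75%, 85.0% and 95% of the 20 bases before the closing AG in ANAPC5 intron 14, CDC23 intron 14 and ANAPC4 intron 23, with a median of 75% among the held short introns.

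For the cullin intron with the largest rise after SNW1 RNAi, and for the scaffold intron with the largest rise in ANAPC4, the intron itself is not held by a transcript. The 30 bases that their spliced mRNA joins are shown instead, with 15 bases of the downstream exon in capitals. ANAPC2 intron 9 lies at chr9:137180385-137180451 on the minus strand (67 bp) and ANAPC4 intron 15 at chr4:25396765-25396847 on the plus strand (83 bp).

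ANAPC2 exons 9 and 10: gaagtcatgctgaagGACATGGCGGACTCC

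ANAPC4 exons 15 and 16: ctgcaggaatcgaagAAGCTATAACTGCTG

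Across the comparisons 15 of the 59 introns rose in at least 1, spread over all 8 genes with listed introns, and 2 fell in at least 1. Retention rose in 7 introns in 2 comparisons and in 0 introns in all 3, while 43 introns moved in none. Only 20 of the 59 could be compared in all 3. Shares over all listed introns were not taken for these combined counts, so they describe the subunit introns alone. Of the 38 introns counted after WBP11 RNAi, 2 rose and 2 fell, where 9.07% of all listed introns rose and 1.69% fell. After SNW1 RNAi 9 of 38 rose, in 5 genes, and 0 fell, against 16.6% and 0.359% of all listed introns. In the WBP11 auxin library 11 of 39 rose, in 6 genes, and 0 fell, against 13.8% and 1.37%. The median change was 0.512 points after WBP11 RNAi, 1.75 points after SNW1 RNAi and 3.03 points in the auxin pair, where the medians over all listed introns were 0.756, 2.63 and 1.45. Of the 24 calls over the 3 comparisons, 11 had a warning from IRFinder in at least 1 of the libraries compared, both falls among them. For uneven coverage these were ANAPC2 introns 2 and 11 (control RNAi, call after SNW1 RNAi), ANAPC2 intron 3 (control RNAi), ANAPC4 intron 23 and ANAPC7 intron 1 (WBP11 RNAi), ANAPC2 intron 10 and ANAPC4 intron 15 (WBP11 auxin) and CDC23 intron 14 (control auxin). For a minor isoform they were ANAPC7 intron 1 (SNW1 RNAi), ANAPC1 intron 23 and CDC16 intron 1 (both WBP11 auxin). The part of these warnings in the calls was not tested. After WBP11 RNAi 19 of 38 subunit introns were free of a warning in both libraries. The same held for 20 of 38 after SNW1 RNAi and 15 of 39 in the auxin pair. Retention stood above control in 21 of 38, 33 of 38 and 35 of 39 subunit introns, where the shares over all listed introns were 59.6%, 91.3% and 72.8%.

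**Figure D1:**
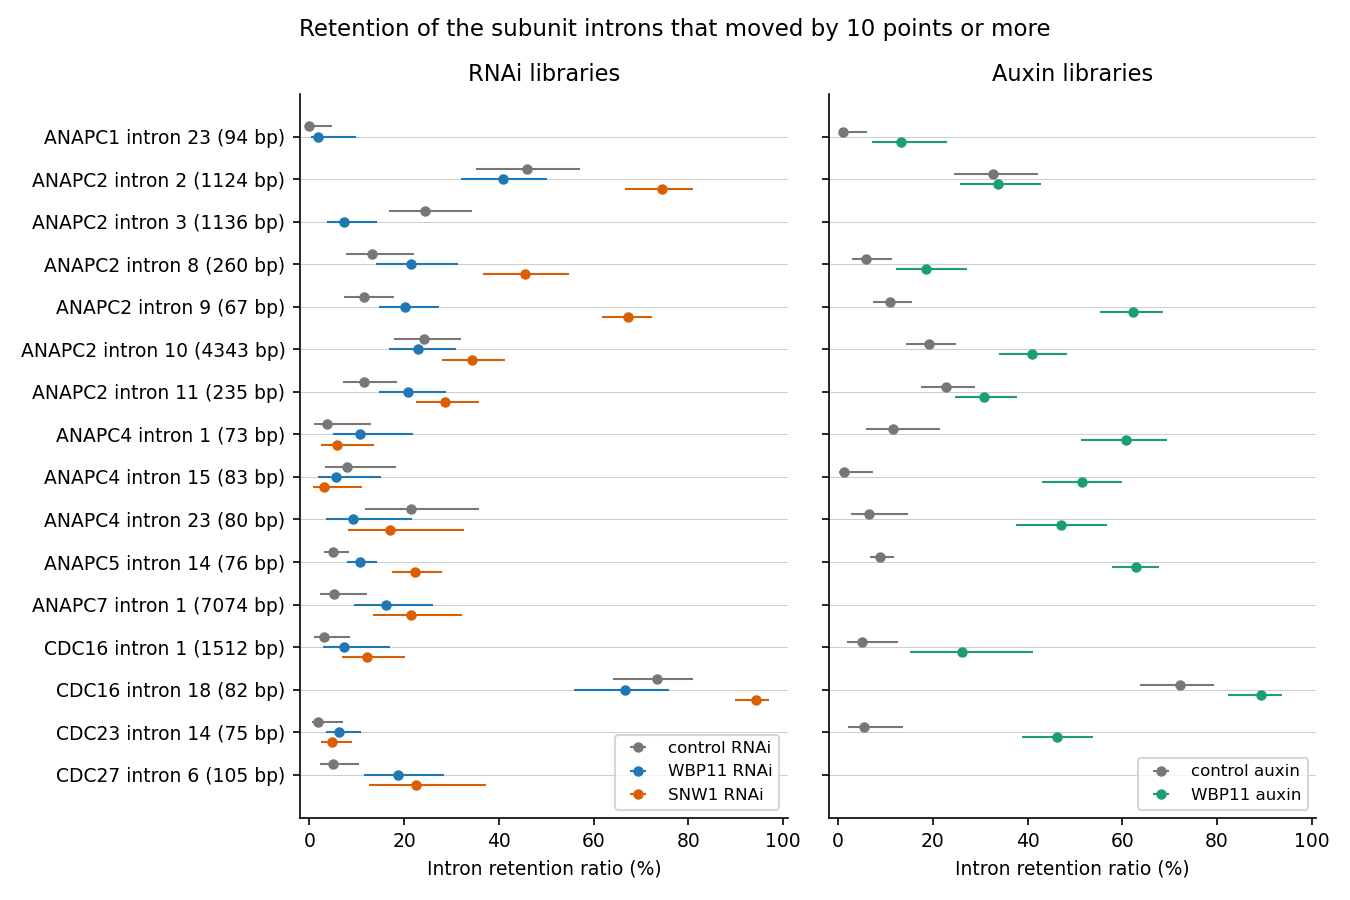
Intron retention ratio (%, x axis) of the 16 subunit introns that moved by at least 10 points in at least 1 comparison, with Wilson 95% intervals as bars, in the 3 RNAi libraries (left) and the 2 auxin libraries (right); a missing point means that the intron was not listed. ANAPC2 intron 9 stands at 67.2% after SNW1 RNAi and 62.2% in the WBP11 auxin library, and the short ANAPC4 and CDC23 introns lie above control by at least 10 points in the auxin panel.

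The rises in the auxin pair lay mostly in short introns. Among introns of at most 100 bp, 8 of 12 rose in the WBP11 auxin library, where 39.2% of all listed short introns rose, and the median change was 28.9 points against 6.17. The short introns that rose belong to ANAPC1, ANAPC2, ANAPC4, ANAPC5, CDC16 and CDC23. None of the 12 fell, against 0.818% of all. After SNW1 RNAi 3 of 10 short introns rose and 0 fell, against 26.9% and 0.547% of all. After WBP11 RNAi 0 of 11 rose and 1 fell, against 16.4% and 1.44% of all. Among longer introns 3 of 27 rose in the auxin pair, 6 of 28 after SNW1 RNAi and 2 of 27 after WBP11 RNAi, where the shares over all longer introns were 8.69%, 14.9% and 7.67%. The difference between comparisons was not tested, and the short class was chosen after values were seen.

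**Figure D2:**
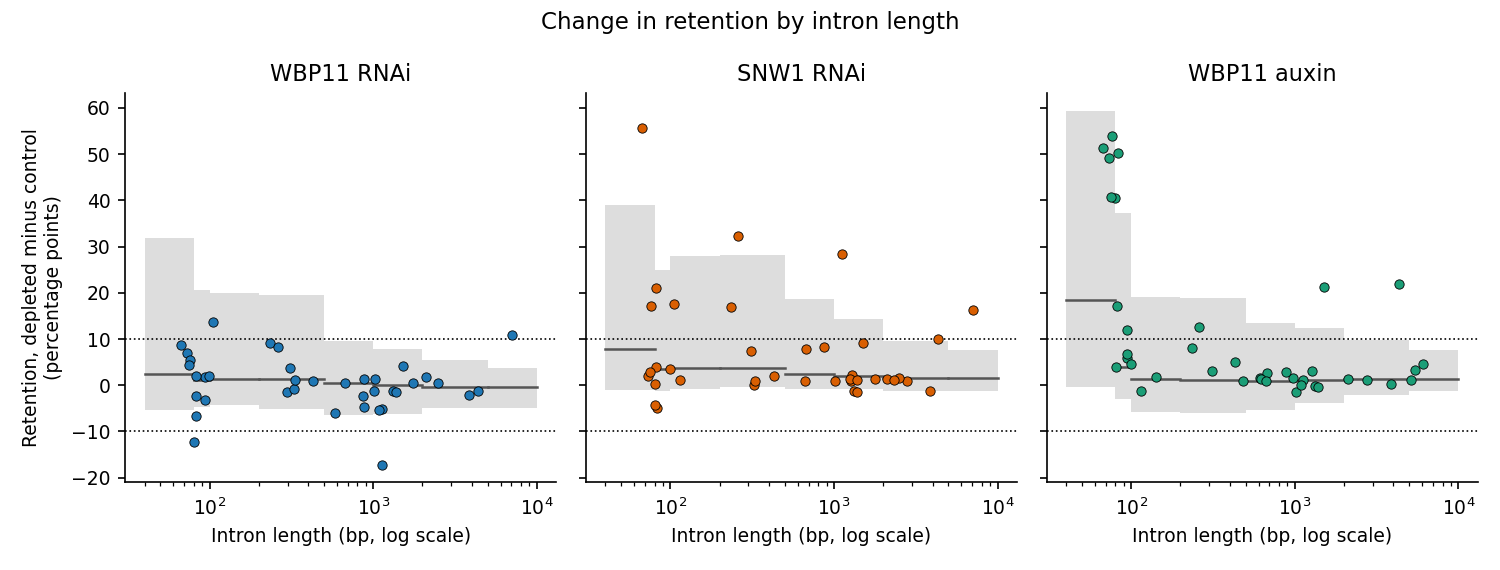
Change in retention (depleted minus control, percentage points) of each subunit intron (points) against intron length (bp, log scale) in the 3 comparisons; the grey boxes span the 5th to 95th percentile of all listed introns in each length class up to 10000 bp, the lines are their medians, and dotted lines mark 10 points. In the WBP11 auxin panel the median over all introns of at most 80 bp is 18.5 points, and the subunit introns of that length lie at 40.6 points or more.

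ANAPC2, which binds the RING subunit and forms the catalytic core, had the most introns with a rise after SNW1 RNAi, 5 of 9. Intron 9 stood at 11.5% in control RNAi (95% interval 7.24 to 17.8), at 20.2% after WBP11 RNAi and at 67.2% after SNW1 RNAi (61.7 to 72.3). In the auxin pair it stood at 10.9% in control and 62.2% in the WBP11 auxin library (55.4 to 68.6). The controls were alike and both the SNW1 RNAi and WBP11 auxin values lay far above them, by 55.7 points (47.3 to 62.4) and 51.3 points (43.0 to 58.6). The WBP11 RNAi value lay 8.66 points above control, just outside the threshold.

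The neighbouring introns of ANAPC2 followed with smaller rises. Intron 8 (260 bp) went from 13.3% in control RNAi to 45.6% after SNW1 RNAi, and from 5.91% to 18.6% in the auxin pair. Intron 10 (4343 bp) went from 24.2% to 34.4% after SNW1 RNAi, a difference of 10.1 points whose interval reached below 0 (-0.0152 to 19.7), and from 19.1% to 41.0% in the auxin pair. These 3 adjacent introns rose in both comparisons. After WBP11 RNAi intron 8 stood at 21.5% and intron 10 at 23%, neither of them 10 points from control.

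Introns 2 and 11 of ANAPC2 rose after SNW1 RNAi and in no other comparison. Intron 2 (1124 bp, chr9:137186357-137187480) was already retained in control RNAi at 46.0% and reached 74.5% after SNW1 RNAi, while WBP11 RNAi gave 40.9%. The auxin pair gave 32.8% in control and 33.8% in the WBP11 auxin library, a difference of 1.06 points (-11.4 to 13.4). Intron 11, which an annotated transcript contains as exon, stood at 11.6% in control RNAi, 20.8% after WBP11 RNAi and 28.7% after SNW1 RNAi. In the auxin pair it stood at 22.8% and 30.8%, a difference of 8.01 points.

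Intron 3 of ANAPC2 (1136 bp, chr9:137185088-137186223) was listed in the WBP11 RNAi table alone and fell there, from 24.5% (16.7 to 34.4) to 7.35% (3.66 to 14.2). The difference was -17.2 points (-27.7 to -6.79). The other 4 listed introns of ANAPC2 moved by 0.87 to 7.52 points, with intron 1 after SNW1 RNAi at the upper end. In the SNW1 RNAi library ANAPC2 introns therefore ranged from 1.13% (intron 6) to 74.5% (intron 2).

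**Figure D3:**
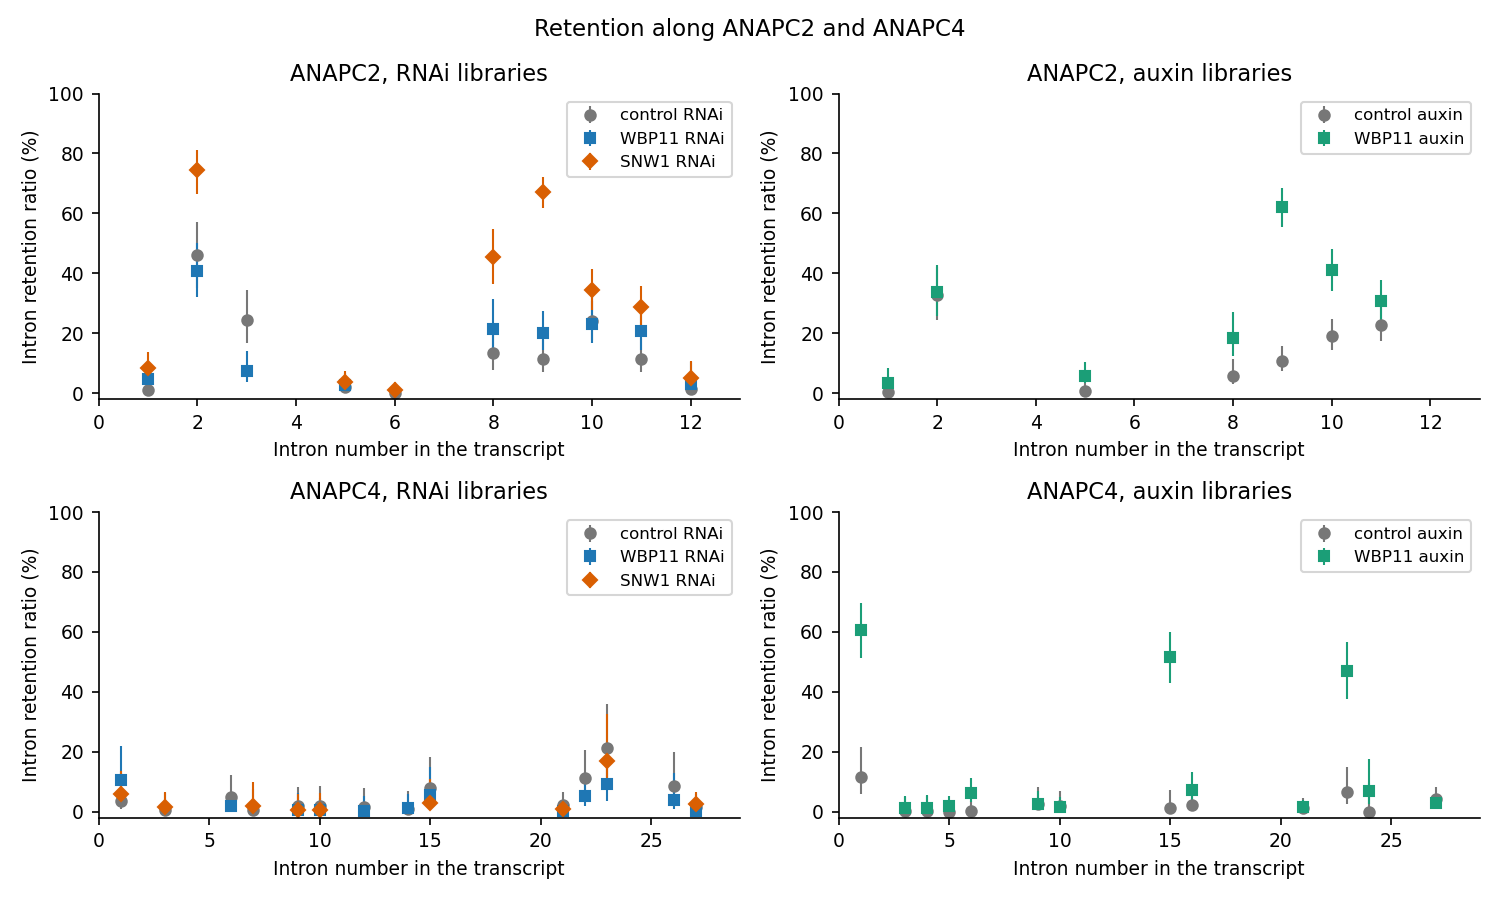
Intron retention ratio (%, y axis) along ANAPC2 (top) and ANAPC4 (bottom) by intron number (x axis), with Wilson 95% intervals as bars, in the RNAi libraries (left) and the auxin libraries (right). In ANAPC2 introns 8 to 11 lie above control after SNW1 RNAi, and in ANAPC4 introns 1, 15 and 23 reach 60.7%, 51.5% and 47.0% in the WBP11 auxin library while the other listed introns stay at 7.13% or less.

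Among the scaffold genes, ANAPC4 and ANAPC5 carried the largest rises in the auxin pair. ANAPC5 intron 14, the 76 bp intron printed above, stood at 5.07% in control RNAi (3.07 to 8.27), 10.6% after WBP11 RNAi and 22.3% after SNW1 RNAi (17.5 to 27.9). In the auxin pair it went from 8.95% (6.70 to 11.9) to 62.9% (57.8 to 67.7), a difference of 53.9 points (48.0 to 59.2). All 3 depleted libraries lay above their control, and the difference passed 10 points in the SNW1 RNAi and WBP11 auxin libraries. The other 3 listed introns of ANAPC5 moved by -5.40 to 8.18 points, the last value belonging to intron 3 after SNW1 RNAi.

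ANAPC4 rose at 3 introns in the WBP11 auxin library, and these have 73, 83 and 80 bp. Intron 15 went from 1.35% (0.239 to 7.27) to 51.5% (43.0 to 60). At intron 1 retention was 11.5% in control and 60.7% after depletion, and at intron 23 it was 6.48% and 47.0%. Intron 1 overlaps an exon of another coding transcript, so its value mixes that exon with retention. None of the 3 rose in the RNAi libraries: intron 15 stood at 7.94% in control, 5.56% after WBP11 RNAi and 3.02% after SNW1 RNAi. Intron 1 stood at 3.77%, 10.7% and 5.80% in the same order.

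ANAPC4 intron 23 moved in opposite directions. It stood at 21.4% in control RNAi (11.7 to 35.9), at 9.14% after WBP11 RNAi (3.54 to 21.6) and at 17.1% after SNW1 RNAi. The fall after WBP11 RNAi was -12.3 points, with an interval that includes 0 (-27.8 to 3.52), from 42.0 observations in control. In the auxin pair the rise was 40.6 points (28.0 to 50.9). The other 15 listed introns of ANAPC4 moved by -5.93 to 6.82 points, intron 24 in the auxin pair having the largest absolute change. ANAPC1, the largest scaffold subunit, rose at intron 23 (94 bp) in the auxin pair, from 1.12% to 13.2%, and stood at 0% and 1.89% in the control RNAi and WBP11 RNAi libraries. The 0% came from 76 spliced reads and no intron depth, which allows up to 4.81% (Wilson). Its other 4 listed introns moved by 1.28 to 3.33 points, most at intron 21 in the auxin pair.

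Of the TPR genes, CDC23 had 1 intron with a rise. Its intron 14, a 75 bp intron near the 3′ end of the coding region, stood at 1.91% in control RNAi, 6.20% after WBP11 RNAi and 4.73% after SNW1 RNAi. In the auxin pair it rose from 5.50% (2.08 to 13.8) to 46.2% (38.8 to 53.8). The RNAi values lay close together and the WBP11 auxin value lay 40.7 points above its control. The other 7 listed introns of CDC23 moved by -1.18 to 3.97 points, intron 7 in the auxin pair most.

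CDC16 rose at its coding intron 1 and at intron 18 of a transcript that splices its 3′ UTR. Intron 1 (1512 bp) stood at 3.08% in control RNAi, 7.25% after WBP11 RNAi and 12.1% after SNW1 RNAi, and went from 4.95% to 26.1% (15.2 to 41.1) in the auxin pair. Intron 18 (82 bp, chr13:114272482-114272563) is contained in the exon of 2 coding transcripts and was retained at 73.5% in control RNAi and 72.2% in control auxin. It stood at 66.7% after WBP11 RNAi, 94.4% after SNW1 RNAi and 89.4% in the WBP11 auxin library. The rises of 21.0 points (12 to 30.6) and 17.2 points (7.19 to 26.7) cannot be told apart from a shift between annotated isoforms. The other 7 listed introns of CDC16 moved by 0.57 to 4.64 points, intron 2 in the auxin pair most.

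CDC27, the subunit that contacts the coactivators, and ANAPC7, another TPR subunit, rose in both RNAi libraries. CDC27 intron 6 (105 bp, chr17:47157125-47157229) stood at 5.03% in control RNAi, 18.6% after WBP11 RNAi (11.6 to 28.4) and 22.6% after SNW1 RNAi (12.5 to 37.3). ANAPC7 intron 1 (7074 bp, chr12:110396453-110403526) stood at 5.26%, 16.1% and 21.5% in the same order. Its rise after SNW1 RNAi was 16.2 points, or 25.5 points when only exactly spliced reads were counted. Both comparisons share the control, so these rises are not independent of each other, and neither intron was listed in the auxin table. ANAPC7 introns 1, 4 and 5 overlap AC144548.1, a gene on the same strand, and at intron 5 an exon of that gene overlaps the intron. The other CDC27 intron, 13, moved by 1.04 points after SNW1 RNAi, and the other 2 of ANAPC7 moved by 1.26 and 3.03 points in the auxin pair, the larger at intron 5.

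The controls themselves differed at some of these introns. Of 28 subunit introns listed with both controls, 3 (10.7%) were at least 10 points apart, against 5.85% of 15056 introns in all. ANAPC4 intron 23 was lower in control auxin (-15 points, interval -30 to -2.13) and ANAPC2 intron 2 was lower there too (-13.2 points, -27.2 to 1.17). ANAPC2 intron 11 was higher in control auxin by 11.2 points (2.66 to 18.8). The controls differ both in line and in auxin treatment, which cannot be told apart here. The part that these differences between controls have in the calls at the same introns was not tested. The introns just inside and outside the threshold were ANAPC7 intron 1 (10.8) and ANAPC2 intron 11 (9.22) after WBP11 RNAi, ANAPC2 intron 10 (10.1) and CDC16 intron 1 (9.04) after SNW1 RNAi, and ANAPC1 intron 23 (12) and ANAPC2 intron 11 (8.01) in the auxin pair, all as differences in points.

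Splicing to other ends moved at some of the same introns. This share was taken as the spliced reads at an intron's busier end that do not join both of its annotated ends. In the WBP11 auxin library it rose by at least 10 points at 7 of 39 subunit introns, where 5.82% of all listed introns did so, and fell at 0, against 0.711%. The largest was ANAPC4 intron 24 (94 bp), from 2.78% to 40% (difference 37.2 points, 20 to 51.9), where retention reached only 6.82%. ANAPC7 intron 4 went from 5.80% to 31.2%, ANAPC1 intron 23 from 2.27% to 26.7% and ANAPC4 intron 15 from 0% to 22.6%. CDC16 intron 6 and ANAPC4 introns 10 and 4 were the remaining ones, with rises of 18.9, 15.6 and 11.6 points. Of these 7 introns, ANAPC1 intron 23 and ANAPC4 intron 15 also rose in retention.

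After SNW1 RNAi the share rose at 2 of 37 subunit introns and fell at 0, against 3.04% and 0.815% of all, and after WBP11 RNAi it rose at 1 of 38 and fell at 1, against 2.96% and 1.19%. ANAPC7 intron 1 was the rise in both, from 2.44% in the shared control to 39.3% after SNW1 RNAi and 21.0% after WBP11 RNAi. ANAPC4 intron 23 was the other after SNW1 RNAi, from 0% to 10.3% (difference interval -2.08 to 26.4). The fall after WBP11 RNAi was at ANAPC2 intron 3, from 16.4% to 3.26%, the intron whose retention also fell. ANAPC2 intron 9 and ANAPC5 intron 14, which had the largest rises in retention, did not pass that size: 75 of 77 and 125 of 125 spliced reads joined their annotated ends in the WBP11 auxin library.

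**Figure D4:**
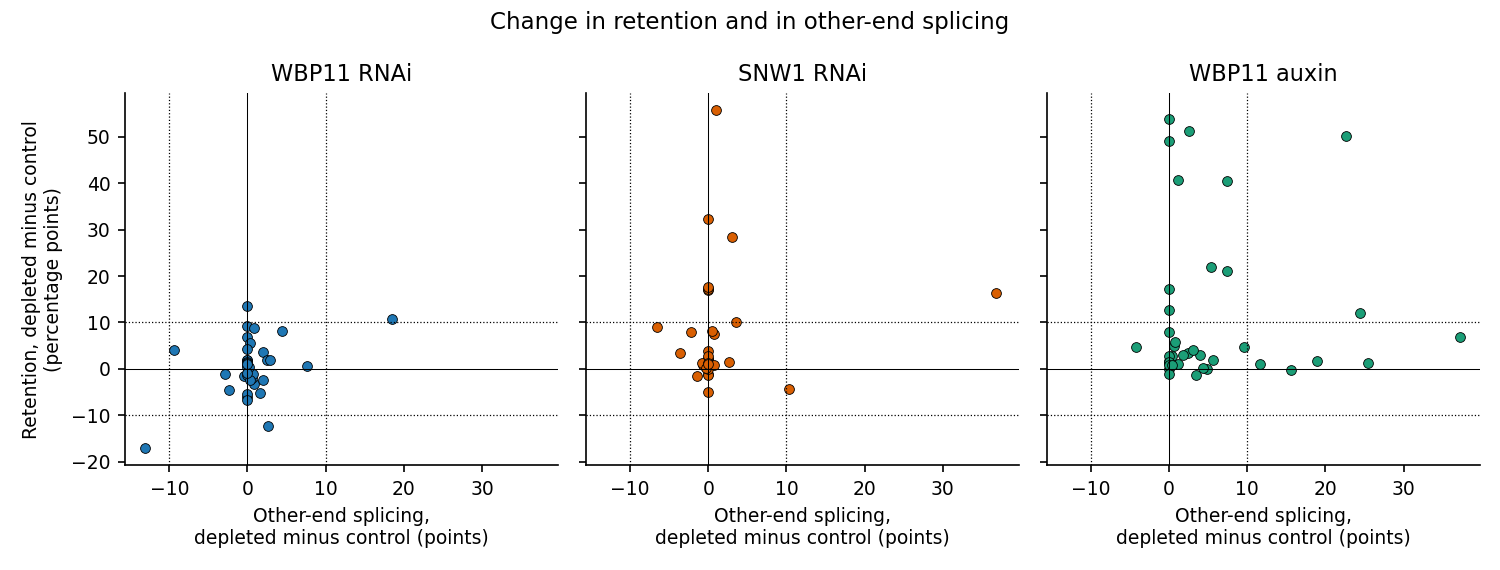
Change in retention (y axis) against change in the share of spliced reads that use another end (x axis), both as depleted minus control in percentage points, for each subunit intron in the 3 comparisons; dotted lines mark 10 points. In the WBP11 auxin panel the introns with retention rises above 40 points lie under 10 points on the x axis except ANAPC4 intron 15, at 22.6 points.

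Reads spliced exactly at the listed introns were also summed for each gene and set relative to the total over listed introns of the table. These sums leave out reads of retained introns and cover only listed introns, so they are not a measure of the whole gene. Being relative to the total over listed introns, they show neither the number of cells nor the RNA per cell. CDC23 had 168% of control after WBP11 RNAi (148 to 189), 211% after SNW1 RNAi (196 to 228) and 139% in the auxin pair (127 to 153). Over all genes with at least 30 spliced reads in control the medians were 102%, 105% and 104%, with lower quartiles of 73.5%, 72.9% and 74.1% and upper quartiles of 131%, 142% and 143%. CDC16 had 63.9%, 122% and 47.8% in the same order, and ANAPC5 had 115%, 92.5% and 51.4%. ANAPC7 had 64.5%, 56.3% and 54.0% over its 1 or 2 listed introns. Reads spliced to another end are also left out of these sums, and the part of this in them was not tested. At ANAPC7 intron 1 the exactly spliced reads were 34 of 56 after SNW1 RNAi, 49 of 62 after WBP11 RNAi and 80 of 82 in control. At its intron 4 they were 99 of 144 in the WBP11 auxin library and 195 of 207 in control auxin. ANAPC2 had 110% after WBP11 RNAi and 158% after SNW1 RNAi, where 5 of its introns rose, and 62.2% in the auxin pair.

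The wider pathway was described by 51 genes that are not among the 10, of which 34, 41 and 37 had listed introns. After WBP11 RNAi 6 of 92 introns rose (6.52%, against 9.07% of all listed introns) and 1 fell, against 1.69% of all. After SNW1 RNAi 12 of 125 rose (9.60%, against 16.6%) and 0 fell, against 0.359%. The auxin pair had 24 of 129 with a rise (18.6%, against 13.8%) and 1 fell, against 1.37%. The share that rose was thus below that of all listed introns in both RNAi comparisons and above it in the auxin pair, and this was not tested. Among substrates and targets of the complex, the group with the most introns, 5 of 56 (8.93%), 9 of 61 (14.8%) and 16 of 63 (25.4%) rose, and the 5 after WBP11 RNAi lay in CDCA5 and ESPL1. Among inhibitors and checkpoint genes 1 of 21 (4.76%), 2 of 39 (5.13%) and 7 of 46 (15.2%) rose. Introns of CDCA5, which encodes the cohesion factor sororin, had the largest rise in both RNAi comparisons, from 3.77% to 29.9% after WBP11 RNAi and to 69.2% after SNW1 RNAi (chr11:65083724-65083932, 209 bp). KIF22, a chromosome-arm kinesin and a substrate, had the largest in the auxin pair, from 12.9% to 67.6% (chr16:29805175-29805262, 88 bp). The largest falls were in BUB1B, a kinase-like checkpoint protein, from 23.4% to 9.12% after WBP11 RNAi, and in CDCA3, from 28.7% to 13.7% in the auxin pair with an interval of the difference that includes 0 (-30.2 to 5.32).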

How the data were processed

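The authors deposited 3 tables, each of 1 depleted library against 1 control, which per the file headers are directional IRFinder comparisons of STAR alignments to hg38. RSEM and bedtools, with hg38, stand in the submitters' processing notes; their versions were not given in the sources used here. Per the file headers the retention ratio is a fraction, the intron depth a coverage signal and the spliced reads a count, none scaled between libraries. Values of the deposited p-value columns are not reported, and a code of 33 in them marks rows without a test.

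Introns with depth plus spliced reads of at least 10 in both libraries were counted. Intervals are at 95% and reads are not independent molecules. Named introns are all subunit introns that moved by 0.1 or more, the largest other change of each gene, and the largest rise and fall of the pathway list. Other introns, named for other-end splicing, for the range within ANAPC2 or as CDC20, FZR1, CDC26 and ANAPC15, were chosen after their values were seen. Coordinates count from 1, and intron numbers and sequences come from GENCODE 29 (GRCh38), in which all subunit introns were found exactly. The gene members, lists and length class were chosen with earlier results of these data known. Alternatives covered call size, depth, exact splicing, exon overlap, warnings, centring and listing. Software was python 3.11.15, numpy 2.4.6, pandas 2.3.3 and matplotlib 3.10.9.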

Additional observations from a re-analysis of the deposited data

Results flagged for a closer look

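ANAPC4 intron 23 moved in opposite directions in the comparisons aimed at WBP11: it fell after WBP11 RNAi (-12.3 points, 95% interval -27.8 to 3.52) and rose in the WBP11 auxin library by 40.6 points (28.0 to 50.9). With 1 library in each group the difference between the comparisons was not tested. The control values of this intron also differed, at 21.4% in control RNAi and 6.48% in control auxin.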

How the results depend on the processing

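No paired analysis was possible because each group had 1 library, and for the same reason no library could be left out. With a difference of at least 0.05, 7 subunit introns rose and 6 fell after WBP11 RNAi, 3 of the short introns rose there, and 12, 23 and 41 introns of the pathway list rose after WBP11 RNAi, SNW1 RNAi and WBP11 auxin. With at least 0.2, 0 rose and 0 fell after WBP11 RNAi, 4 rose after SNW1 RNAi, and the pathway list gave 2, 4 and 6. Calling introns whose interval leaves out 0 gave rises at 5 of 38 introns (13.2%) after WBP11 RNAi. Of the 11 short introns 2 were among them (18.2%). The pathway list gave 11 of 92, 27 of 125 and 38 of 129. Over all listed introns the shares by this call were 14.2%, 31.0% and 20.6% in the same order. Over all short introns after WBP11 RNAi the share was 25.7%. For the other settings in this section the share over all listed introns is not given. Requiring no warning in both libraries left 1 rise and 0 falls among 19 introns after WBP11 RNAi and 6 rises among 15 in the auxin pair, 5 of them among 7 short introns, with 3 of 44, 5 of 66 and 6 of 48 in the pathway list. It moved the median change to 1.29 points after WBP11 RNAi and 4.69 in the auxin pair. Only introns listed in all 3 tables gave 0 rises and 1 fall after WBP11 RNAi. A depth minimum of 30 gave 6 in the pathway list after SNW1 RNAi. Short limits of 120 bp and 80 bp gave 1 rise after WBP11 RNAi and 5 of 5 in the auxin pair. Centring on the median of all introns turned the median change to -0.244 points after WBP11 RNAi and -0.876 after SNW1 RNAi, and moved that of the auxin pair to 1.58. Counting only exactly spliced reads moved ANAPC7 intron 1 after SNW1 RNAi from 16.2 to 25.5 points. The settings for the short class and the pathway list were chosen after seeing the data. The remaining 91 of these counts stayed within 1.5 times the value reported. Depth limits calls near the threshold: the rise of 10.1 points at ANAPC2 intron 10 after SNW1 RNAi had an interval of -0.0152 to 19.7.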

Other observations

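The coactivators and the ubiquitin enzymes of the complex were looked at after their values were seen. All listed introns of CDC20, the mitotic coactivator, and of UBE2C, the conjugating enzyme that primes substrates, stayed within 10 points of control in every comparison. The largest change among them was at the 86 bp CDC20 intron at chr1:43359639-43359724, from 1.97% to 7.81% in the auxin pair (difference 5.84 points, 4.12 to 7.66), which rests on 1150 observations in each library. FZR1, the coactivator of late mitosis and G1, rose at its intron at chr19:3532096-3532416, from 7.74% to 25.6% after SNW1 RNAi and from 13.9% to 26.7% in the auxin pair. Among the smaller subunits, CDC26 stood at 4.76% in control and 10.2% after SNW1 RNAi at chr9:113273439-113275381, and ANAPC15 at 2.84% and 7.85% at chr11:72109929-72110087, both within 10 points.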
